A study of Mus musculus with 6 samples.

Results

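The Hox cluster genes are the homeobox transcription factors of the Hoxa, Hoxb, Hoxc and Hoxd clusters. They were taken here as every row of the deposited count table whose symbol is Hoxa, Hoxb, Hoxc or Hoxd followed by a number, which gave 39 of the 27998 genes in the table: 11 of cluster A, 10 of cluster B, 9 of cluster C and 9 of cluster D. The study sorted lung cells of SMA-GFP;Tbx4cre;RosaTdTomato mice that were Epcam-, CD31- and CD45- and profiled them with 10x Genomics 3′ single-cell chemistry. There were 3 sorted populations, SMA+TdTomato+, SMA-TdTomato+ and SMA-TdTomato-, each from normal mice (day 0) and from mice 21 days after bleomycin, an agent that scars the lung, with 1 library for each of the 6 combinations. All 6 groups carry the same 3 alleles: a GFP reporter of smooth muscle actin, and a TdTomato reporter switched on by Cre in cells whose lineage has used the Tbx4 driver. The reporters therefore show use of a promoter and descent from a lineage. The labels do not say how many mice went into a library.

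Every barcode in the table ends in a suffix from 1 to 6, but nothing in the sources used here ties a suffix to a sample, so no value below compares days or sort gates and no replicate test was possible. Levels are counts of unique molecular identifiers (UMIs, 1 per captured RNA molecule) summed over the cells of a class and given per 1000000 UMIs of that class (CPM). These 3′ counts have no length scaling. Intervals are exact 95% intervals for Poisson counts, binomial shares or ratios of counts, and they cover counting error only. A gene counted as measured in a comparison if it had 20 or more UMIs in both classes together and at least 5 expected in each at equal CPM. Differences past 2-fold were counted, with no test of cells or genes.

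Hox genes lie in the order in which they are used along the body axis: paralogues with low numbers, at the 3′ end of a cluster, are used early and towards the head, and those with high numbers later and towards the tail. The proteins bind DNA together with TALE cofactors of the Pbx and Meis families. In the lung, Hoxa5 is known to be needed in the mesenchyme for normal airway and alveolar development, and adult fibroblasts keep a Hox code that reflects their place of origin.

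After filtering, 9919 cells with a median of 2699 UMIs remained of 10410 barcodes. Cell classes came from gate genes, none of them a Hox gene. The mesenchymal class (Col1a2 and Col3a1, 3 or more UMIs together) held 2443 cells, of which 554 had Hhip only, 912 Npnt only and 308 Pi16 only, 439 had none of these and 230 had 2 or more. Mural cells (2 or more of Higd1b, Cox4i2 and Notch3) numbered 46, mesothelial cells (2 or more of Wt1, Upk3b and Msln) 87, endothelial cells (Pecam1 and Cdh5, 2 or more UMIs) 588 and leukocytes (Ptprc) 4051, although the sort was for cells without CD31 and CD45. Check markers outside the gates followed the gates with exceptions. The summed level of the 6 markers of the Hhip gate was 3876 CPM in Hhip-gated cells against 154 in Npnt-gated cells. The 5 mesothelial markers summed to 2190 CPM in mesothelial cells against 46.9 in mesenchymal cells. The 6 markers of the Npnt gate summed to 1685 CPM in Npnt-gated, 553 in Pi16-gated and 126 in Hhip-gated cells. Among these 6, Figf was higher in Pi16-gated than in Npnt-gated cells, at 350 against 299 CPM. The 6 check markers of the Pi16 gate summed to 2017 CPM in endothelial cells and 2012 CPM in Pi16-gated cells. Of the endothelial sum, 1913 CPM was Ly6c1, which was at 390 CPM in Pi16-gated cells. Dpp4 was also higher in endothelial cells, at 80.2 against 11.7 CPM, and it was at 189 CPM in mesothelial cells. Scara5, Col14a1, Ccl11 and Fbln2 were lower in endothelial cells, at 0 to 19.1 CPM against 171 to 678 CPM. Suffixes 1 and 4 held 537 and 1768 of the mesenchymal cells and the other suffixes 29 to 41 each. Xist, of the inactive X chromosome, was at 1466 to 1921 CPM in suffixes 4 to 6. In suffixes 1 to 3 it was at most 6.47 CPM. Ddx3y, of the Y chromosome, was at 87.2 to 102 CPM in suffixes 1 to 3 and at most 0.575 CPM in suffixes 4 to 6. Suffixes 1 and 4 therefore also differed in the sex of their cells, which cannot be told apart from other differences between them. Of 10355 barcode sequences, 55 occurred in more than 1 suffix.

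Transcripts of clusters A and B made up nearly all Hox RNA of the lung stroma, and they came from the 3′ and central paralogues. In the 7302 gated cells, 14 members had 20 or more UMIs, among them Hoxa2, Hoxa3, Hoxa4, Hoxa5, Hoxa7, Hoxb2, Hoxb3, Hoxb4, Hoxb5, Hoxb6, Hoxb7, Hoxb8 and Hoxc4. A further 11 members had 1 to 19 UMIs, and Hoxc8 was found only outside the gated cells. The other 13 members had no UMI in any barcode: Hoxa10, Hoxa11, Hoxa13, Hoxb13, Hoxc10, Hoxc11, Hoxc12, Hoxc13, Hoxd1, Hoxd3, Hoxd11, Hoxd12 and Hoxd13. Of these, 11 are paralogues of numbers 10 to 13, which pattern the hindmost trunk, the limbs and the urogenital tract. Paralogues 9 to 13 together had 3.0 UMIs in Hhip-gated cells, all of Hoxb9, against 426.0 for paralogues 1 to 4 and 474.0 for paralogues 5 to 8. In Npnt-gated cells the same 3 sums were 1.0, 656.0 and 1017.0 UMIs.

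**Figure D1:**
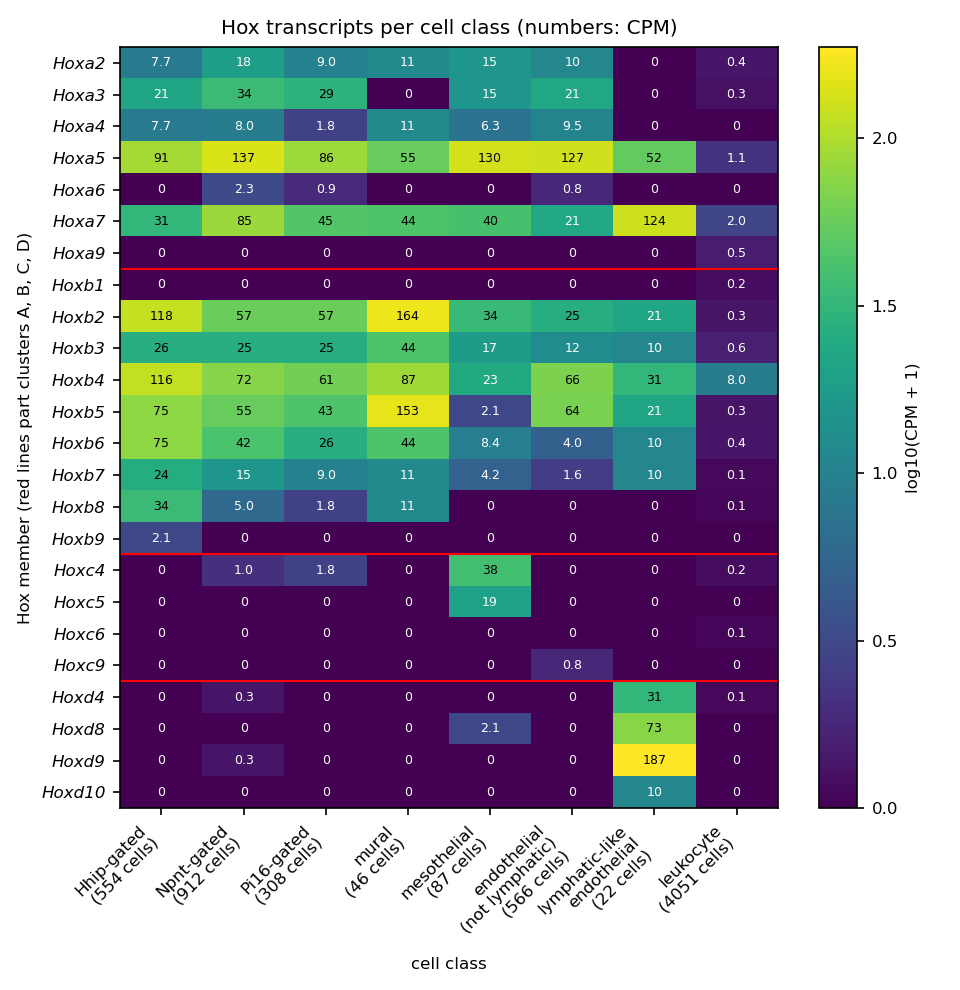
Levels of 24 Hox members with a UMI in the classes shown. Rows are members in cluster order and columns are cell classes with their number of cells; colour is log10(CPM + 1) and the printed number is CPM. Clusters A and B fill the stromal columns, Hoxc4 and Hoxc5 appear in the mesothelial column and Hoxd8 and Hoxd9 in the lymphatic-like column.

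Summed over the 39 members, Hox RNA was at 631 (590.4 to 673) CPM in Hhip-gated cells, 561 (535 to 589) CPM in Npnt-gated cells and 399 (363 to 438) CPM in Pi16-gated cells. Mural cells had 633 (481 to 818) CPM, mesothelial cells 352 (301 to 409) CPM and endothelial cells 382 (349.6 to 416) CPM. Leukocytes had 14.8 (12.9 to 16.8) CPM. With all suffixes pooled, the 3 intervals of the mesenchymal subtypes did not overlap, with the Hhip gate highest and the Pi16 gate lowest. Those of Pi16-gated, mesothelial and endothelial cells did overlap. Leukocytes lay more than an order of magnitude below every stromal class. Within suffix 1 the sums were 704 CPM in Hhip-gated, 587 in Npnt-gated and 429.6 in Pi16-gated cells. Within suffix 4 they were 607, 563 and 391 CPM, the same order in both. These sums are without intervals, so it is not shown that the Hhip and Npnt gates stood apart within a suffix. Suffix 1 gave 199 of the 554 Hhip-gated cells but 86 of the 912 Npnt-gated cells. Over all mesenchymal cells, Hox RNA was at 577 CPM in suffix 1 and 522 CPM in suffix 4.

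The clusters took different shares of this RNA in each class. Cluster B held 74.8% (71.8 to 77.6) of Hox UMIs in Hhip-gated cells, 48.3% (45.9 to 50.8) in Npnt-gated cells and 55.9% (51.1 to 60.5) in Pi16-gated cells. With all suffixes pooled, the interval of the Hhip gate lay apart from those of the other gates. The cluster B share was 73.9% (68.2 to 79.0) in suffix 1 and 75.3% (71.8 to 78.6) in suffix 4 for the Hhip gate. It was 59.6% (50.1 to 68.7) and 47.4% (44.8 to 49.98) for the Npnt gate and 65.2% (54.6 to 74.9) and 52.1% (46.6 to 57.7) for the Pi16 gate. The Hhip gate was highest in both, but in suffix 1 its interval overlapped both others. Without suffix 4 it was at 73.5% (67.8 to 78.6), which overlapped the Pi16 gate at 66.4% (57.0 to 74.9) but not the Npnt gate at 55.4% (48.1 to 62.6). Mural cells were at 81.0% (68.6 to 90.1), near the Hhip gate. Among the mesenchymal, mural, mesothelial and endothelial classes, mesothelial cells had the lowest share of cluster B, 25.0% (18.7 to 32.3), and the highest share of cluster C, 16.1% (10.9 to 22.5). The cluster B share of mesothelial cells was 17.9% (11.6 to 25.8) in suffix 4 but 51.6% (33.1 to 69.8) in suffixes 2, 3, 5 and 6 together. Without suffix 4 it was 44.4% (29.6 to 60.0) on 45 Hox UMIs, against 46.2% (41.3 to 51.1) in endothelial cells, so that the lowest place was not kept, while cluster C held 9 of these 45 UMIs against 1 of 418 in endothelial cells. Endothelial cells drew 50.3% (45.9 to 54.7) from cluster A and 43.9% (39.6 to 48.3) from cluster B.

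**Figure D2:**
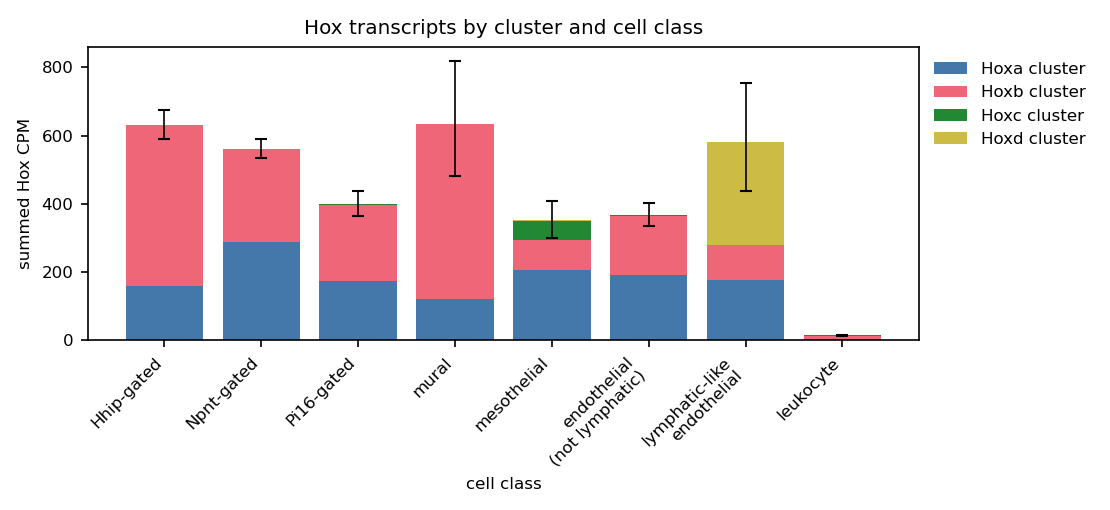
Summed Hox level of each cell class, in CPM, stacked by cluster; error bars are exact 95% Poisson intervals of the sum over all members. Cluster B dominates in Hhip-gated and mural cells, cluster C is visible in mesothelial cells and cluster D in the lymphatic-like endothelial subset.

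The promoters of 5 members are shown because of the values that follow. With all suffixes pooled, Hoxa5 had the most UMIs of any member over all mesenchymal cells, although without suffix 4 it had 143 to 150 of Hoxb4. Hoxb8 was highest in the Hhip gate, Hoxc4 in mesothelial cells, and Hoxd8 and Hoxd9 occurred together in the lymphatic-like subset of endothelial cells. All 5 were picked after their values were seen. The sequences are from RefSeq on GRCm38.p6, 250 bases before to 50 after the annotated start, 5′ to 3′ on the strand of the gene; 22 of the 39 members had such an entry, with 24 promoters in all. Both strands were searched for TGATTNAT (a Pbx-Hox site), TGACAG (a Meis site) and AGGTCA (a half-site of retinoic acid receptors), none of which contains another. Of 32851 promoters of the same length, 3.22%, 19.2% and 16.3% held them. Among the 24 Hox promoters the numbers were 2, 2 and 7. Capitals mark the only matches in the 5 windows shown, AGGTCA or its reverse complement.
Hoxa5 (chr6:52204538-52204837, minus strand): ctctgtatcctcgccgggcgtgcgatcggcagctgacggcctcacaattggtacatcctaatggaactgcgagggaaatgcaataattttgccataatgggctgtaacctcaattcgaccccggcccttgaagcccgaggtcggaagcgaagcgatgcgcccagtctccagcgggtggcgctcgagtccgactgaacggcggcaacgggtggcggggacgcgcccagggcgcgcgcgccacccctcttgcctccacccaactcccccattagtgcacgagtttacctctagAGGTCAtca
Hoxb8 (chr11:96281655-96281954, plus strand): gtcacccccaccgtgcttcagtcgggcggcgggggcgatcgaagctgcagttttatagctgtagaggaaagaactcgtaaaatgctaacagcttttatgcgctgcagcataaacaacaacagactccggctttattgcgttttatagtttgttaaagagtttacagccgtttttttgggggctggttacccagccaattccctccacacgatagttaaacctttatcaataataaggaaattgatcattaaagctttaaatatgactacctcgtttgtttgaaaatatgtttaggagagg
Hoxc4 (chr15:103034145-103034444, plus strand): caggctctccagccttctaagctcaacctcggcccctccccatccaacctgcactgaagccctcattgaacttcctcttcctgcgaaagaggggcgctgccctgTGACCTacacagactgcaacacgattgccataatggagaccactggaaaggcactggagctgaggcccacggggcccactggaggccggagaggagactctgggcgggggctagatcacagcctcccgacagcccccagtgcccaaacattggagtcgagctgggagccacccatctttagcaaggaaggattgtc
Hoxd8 (chr2:74704365-74704664, plus strand): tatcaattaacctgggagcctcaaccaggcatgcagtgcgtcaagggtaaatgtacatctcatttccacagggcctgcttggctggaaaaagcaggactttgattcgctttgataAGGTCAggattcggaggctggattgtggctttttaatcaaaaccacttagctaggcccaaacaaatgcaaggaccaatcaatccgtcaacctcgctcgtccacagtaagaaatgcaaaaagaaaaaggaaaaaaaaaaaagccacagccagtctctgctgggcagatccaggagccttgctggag
Hoxd9 (chr2:74697513-74697812, plus strand): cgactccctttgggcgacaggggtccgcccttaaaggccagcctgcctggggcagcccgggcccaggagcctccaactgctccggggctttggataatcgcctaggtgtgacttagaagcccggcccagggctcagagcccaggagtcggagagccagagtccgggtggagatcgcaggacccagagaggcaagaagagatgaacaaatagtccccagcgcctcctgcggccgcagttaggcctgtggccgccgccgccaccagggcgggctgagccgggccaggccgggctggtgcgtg
Hoxa5, Hoxc4 and Hoxd8 each held 1 AGGTCA match, and Hoxb8 and Hoxd9 held none of the 3 motifs, which says only that these letters are not in these windows. The windows differed in base composition: CpG pairs numbered 29 at Hoxa5, 20 at Hoxd9, 13 at Hoxb8, 9 at Hoxc4 and 6 at Hoxd8, against a median of 7 over all promoters.

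The genes of the Hoxa cluster lie on the minus strand of chromosome 6. Hoxa5, whose loss in mice disturbs lung development, had the most UMIs of any member in Npnt-gated, Pi16-gated, mesothelial and endothelial cells when all suffixes were pooled. Outside suffix 4 Pi16-gated cells had 26 UMIs of Hoxb4 to 18 of Hoxa5. In suffix 1 Npnt-gated cells had 21 of Hoxb4 to 19 of Hoxa5 and endothelial cells 17 of Hoxb5 to 13 of Hoxa5. Its level was 137 (125 to 151) CPM in Npnt-gated, 90.8 (75.9 to 108) CPM in Hhip-gated and 86.3 (69.9 to 105) CPM in Pi16-gated cells. It was 129.9 (99.6 to 167) CPM in mesothelial, 122 (104 to 142) CPM in endothelial and 54.6 (17.7 to 127) CPM in mural cells, and 1.15 (0.681 to 1.82) CPM in leukocytes. The interval of the Npnt gate lay above those of the other 2 subtypes, while mesothelial and endothelial cells could not be told from it. Suffix 4 gave 52 of the 62 mesothelial UMIs, and without it mesothelial cells were at 66.8 (32.0 to 123) CPM, endothelial cells at 124 (104 to 146) CPM and Npnt-gated, Hhip-gated and Pi16-gated cells at 122 (88.2 to 164), 98.5 (70.0 to 135) and 65.7 (38.9 to 104) CPM, with overlapping intervals. Hoxa5 shares no exon base with another gene of the table.

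Hoxa7, a central paralogue that acts in thoracic patterning, was second in Npnt-gated cells. It was at 84.8 (74.7 to 96.0) CPM there, 44.96 (33.4 to 59.3) CPM in Pi16-gated and 30.7 (22.3 to 41.3) CPM in Hhip-gated cells. Outside the subtypes it was at 43.6 (11.9 to 112) CPM in mural, 39.8 (24.0 to 62.2) CPM in mesothelial, 28.7 (20.4 to 39.2) CPM in endothelial cells and 1.98 (1.35 to 2.81) CPM in leukocytes. Only the Npnt gate stood clear of the others among the subtypes. Without suffix 4, which gave 17 of the 19 mesothelial UMIs, Hoxa7 was at 13.4 (1.62 to 48.3) CPM in mesothelial cells, and the 3 subtypes had overlapping intervals, at 59.5 (36.9 to 91.0) CPM in Npnt-gated, 32.8 (15.0 to 62.3) CPM in Pi16-gated and 30.3 (15.7 to 52.9) CPM in Hhip-gated cells. Hoxa7 overlaps exons of the antisense transcript Hoxaas3, and the sources used here do not give whether the counting used strand, so reads of the pair may not be separated.

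The members described on the 3′ side of Hoxa5 were lower. Hoxa3, which acts in pharyngeal arch development, was at 34.2 (27.9 to 41.5) CPM in Npnt-gated, 28.8 (19.7 to 40.6) CPM in Pi16-gated and 20.96 (14.1 to 29.9) CPM in Hhip-gated cells. It was at 14.7 (5.90 to 30.2) CPM in mesothelial, 19.9 (13.1 to 28.9) CPM in endothelial cells and 0.255 (0.0696 to 0.654) CPM in leukocytes, with no UMI in mural cells. Hoxa2, a hindbrain and neural crest gene, was at 17.8 (13.3 to 23.2) CPM in Npnt-gated, 8.99 (4.31 to 16.5) CPM in Pi16-gated and 7.69 (3.84 to 13.8) CPM in Hhip-gated cells. With all suffixes pooled, both were highest in the Npnt gate, with intervals that overlapped those of both other gates. Without suffix 4 Hoxa2 was lowest there, at 5.67 (0.687 to 20.5) CPM on 2 UMIs. It was then at 15.2 (5.56 to 33.0) CPM in Hhip-gated and 14.6 (3.98 to 37.4) CPM in Pi16-gated cells, with overlapping intervals. Outside the subtypes, pooled Hoxa2 was at 14.7 (5.90 to 30.2) CPM in mesothelial, 9.56 (5.09 to 16.3) CPM in endothelial and 10.9 (0.276 to 60.8) CPM in mural cells. In leukocytes it was at 0.383 (0.141 to 0.834) CPM. Hoxa4, which lies just 3′ of Hoxa5 in the cluster, was at 8.05 (5.16 to 11.98) CPM in Npnt-gated, 7.69 (3.84 to 13.8) CPM in Hhip-gated, 1.80 (0.218 to 6.50) CPM in Pi16-gated, 6.29 (1.296 to 18.4) CPM in mesothelial, 8.83 (4.56 to 15.4) CPM in endothelial and 10.9 (0.276 to 60.8) CPM in mural cells. It had no UMI in leukocytes. Hoxa3 and Hoxa4 overlap antisense exons (Hoxaas3 and Gm29430 among them), and Hoxa2 and Hoxa3 share exon bases with Gm28308 on their own strand, so their counts are uncertain. Hoxa6, between Hoxa5 and Hoxa7, had 11 UMIs in all mesenchymal cells, at 1.39 (0.694 to 2.49) CPM, so the profile along cluster A had 2 peaks with a near-empty gene between them.

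**Figure D3:**
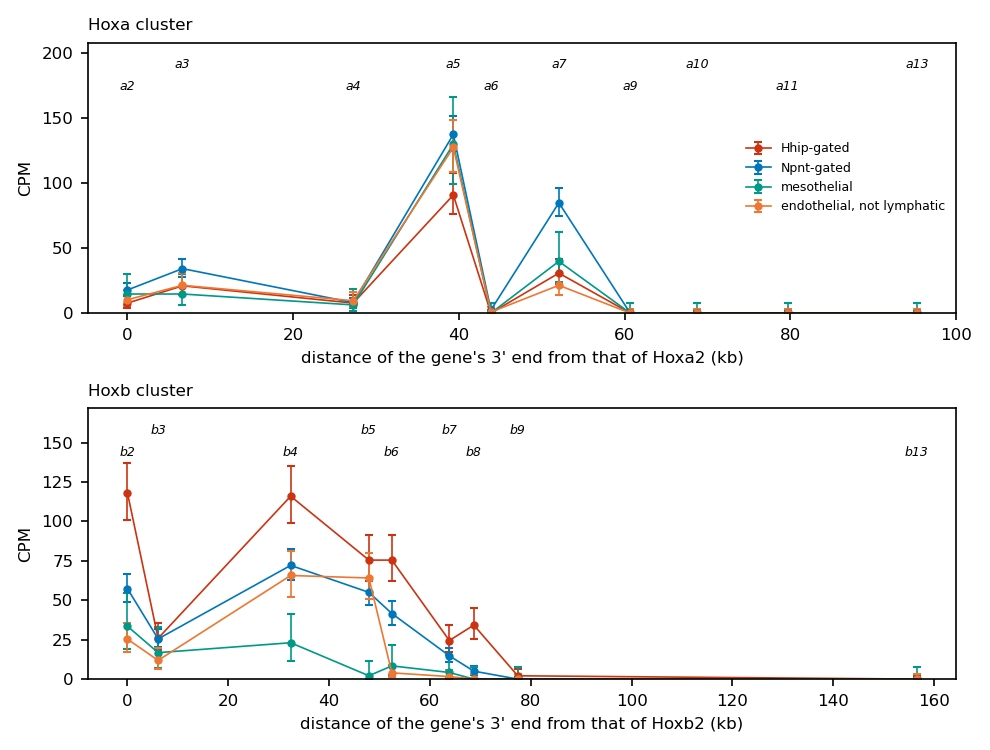
Level of members of clusters A and B from Hoxa2 and Hoxb2 on, in CPM with exact 95% Poisson intervals, against the distance of its 3′ end from that of Hoxa2 or Hoxb2, in kb. In cluster A the level peaks at Hoxa5 and again at Hoxa7; in cluster B it is spread from Hoxb2 to Hoxb8 in Hhip-gated cells, and in endothelial cells it drops between Hoxb5 and Hoxb6.

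The Hoxb cluster lies at chr11:96194316-96368256 (GRCm38). Hoxb2, which patterns the hindbrain in embryos, was the leading member in Hhip-gated and mural cells. It was at 118 (101 to 137) CPM in Hhip-gated, 57.3 (49.1 to 66.6) CPM in Npnt-gated and 56.6 (43.5 to 72.5) CPM in Pi16-gated cells. It was at 164 (91.6 to 270.0) CPM in mural cells (15 UMIs), 33.5 (19.2 to 54.4) CPM in mesothelial, 25.0 (17.3 to 34.9) CPM in endothelial cells and 0.319 (0.104 to 0.745) CPM in leukocytes. The Hhip gate thus stood above the other 2 subtypes, and the mural interval overlapped only that of the Hhip gate among the classes listed. Hoxb2 and Hoxb3 overlap exons of the antisense transcript Hoxb3os.

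Hoxb4, known for its effect on blood progenitor growth, was found in every class, leukocytes included. It was at 116 (99.0 to 135) CPM in Hhip-gated, 72.1 (62.8 to 82.4) CPM in Npnt-gated and 61.1 (47.5 to 77.5) CPM in Pi16-gated cells. It was at 87.3 (37.7 to 172) CPM in mural, 63.2 (50.6 to 78.1) CPM in endothelial, 23.0 (11.5 to 41.2) CPM in mesothelial cells and 8.05 (6.70 to 9.58) CPM in leukocytes. Without suffix 4 Hoxb4 was at 46.8 (18.8 to 96.3) CPM in mesothelial and 94.8 (62.0 to 139) CPM in Pi16-gated cells. Hoxb3, its 3′ neighbour, differed little between subtypes, at 25.9 (18.2 to 35.6) CPM in Hhip-gated, 25.5 (20.1 to 31.9) CPM in Npnt-gated and 25.2 (16.7 to 36.4) CPM in Pi16-gated cells. Hoxb3 was at 43.6 (11.9 to 112) CPM in mural, 16.8 (7.24 to 33.0) CPM in mesothelial, 11.8 (6.73 to 19.1) CPM in endothelial cells and 0.575 (0.263 to 1.09) CPM in leukocytes.

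Hoxb5, a central paralogue found in developing lung mesenchyme, was at 75.5 (61.9 to 91.1) CPM in Hhip-gated, 55.0 (46.9 to 64.1) CPM in Npnt-gated and 43.2 (31.8 to 57.2) CPM in Pi16-gated cells. It was at 153 (83.5 to 256) CPM in mural (14 UMIs) and 61.0 (48.6 to 75.7) CPM in endothelial cells. In mesothelial cells it had 1 UMI, 2.10 (0.0530 to 11.7) CPM, and in leukocytes it was at 0.319 (0.104 to 0.745) CPM. Mesothelial cells thus nearly lacked a gene that every other stromal class had. Its exons overlap the antisense transcript Hoxb5os.

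Hoxb6, Hoxb7 and Hoxb8, the 5′ neighbours that act in trunk patterning, were highest in the Hhip gate among the subtypes. Hoxb6 was at 75.5 (61.9 to 91.1) CPM in Hhip-gated, 41.6 (34.6 to 49.6) CPM in Npnt-gated and 26.1 (17.5 to 37.4) CPM in Pi16-gated cells. Hoxb7 was at 24.5 (17.0 to 34.0), 14.8 (10.7 to 19.8) and 8.99 (4.31 to 16.5) CPM in the same order. Hoxb8 was at 34.2 (25.3 to 45.3), 5.03 (2.82 to 8.30) and 1.80 (0.218 to 6.50) CPM. For all 3 genes the point estimates fell in the order Hhip, Npnt, Pi16, and the interval of the Hhip gate lay clear of both others for Hoxb6 and Hoxb8. Without suffix 4 the Hhip gate was at 106 (76.5 to 143) CPM for Hoxb6, against 65.2 (41.3 to 97.9) CPM in the Npnt gate, which overlapped, and 29.2 (12.6 to 57.5) CPM in the Pi16 gate, which did not. Hoxb7 and Hoxb8 had 6 UMIs each in the Hhip gate without suffix 4, at 15.2 (5.56 to 33.0) CPM, with intervals that overlapped those of both other gates. In endothelial cells Hoxb6 was at 4.41 (1.62 to 9.60) CPM and Hoxb7 at 2.21 (0.455 to 6.45) CPM, and Hoxb8 had no UMI. In mesothelial cells the 3 genes had 4, 2 and 0 UMIs, at 8.38 (2.28 to 21.5), 4.19 (0.508 to 15.1) and 0 (0 to 7.73) CPM. In mural cells they had 4, 1 and 1 UMIs, at 43.6 (11.9 to 112), 10.9 (0.276 to 60.8) and 10.9 (0.276 to 60.8) CPM. Leukocytes had 0.383, 0.128 and 0.0639 CPM. Hoxb9, the next gene, had 3 UMIs, all in Hhip-gated cells, and Hoxb1 at the 3′ end had 2 in mesenchymal cells and 3 in leukocytes.

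Between Hhip-gated and Npnt-gated cells, 12 members were measured, and 2 were past 2-fold higher and 2 past 2-fold lower in the Hhip gate. Over all 10588 measured genes, 6.87% were past 2-fold higher and 10.4% lower. Hoxb8 was 6.81-fold (3.75 to 13.1) higher and Hoxb2 2.06-fold (1.65 to 2.56) higher in Hhip-gated cells. Hoxa7 was 2.76-fold (1.998 to 3.89) and Hoxa2 2.31-fold (1.19 to 4.91) lower there. The median log2 ratio was 0.24 over the members and 0.01 over all measured genes. All 7 measured Hoxb members had point estimates at or above an equal level in the Hhip gate and all 5 Hoxa members below it, with Hoxb3 at 1.01-fold (0.666 to 1.52) higher and Hoxa4 at 1.05-fold (0.494 to 2.37) lower near equality. Without suffix 4, 1 member was past 2-fold higher and 0 lower: Hoxb2 was 2.78-fold (1.58 to 5.12) higher, Hoxb8 1.78-fold (0.380 to 11.0) higher on 6 and 3 UMIs, and Hoxa7 1.96-fold (0.923 to 4.38) lower. Hoxa2, Hoxa4 and Hoxb3 then had point estimates on the other side of equality, on 2 to 10 UMIs in each gate. Without suffix 1, 1 was higher, since Hoxb2 was at 1.92-fold (1.503 to 2.45), and Hoxa2 was 3.92-fold (1.58 to 12.6) lower.

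Between Hhip-gated and Pi16-gated cells, 11 members were measured, of which 4 were past 2-fold higher in the Hhip gate and none lower, against 9.30% and 8.10% of all genes. These were Hoxb8, 19.0-fold (4.996 to 162) higher with only 2 UMIs in Pi16-gated cells, Hoxb6 at 2.89-fold (1.91 to 4.52), Hoxb7 at 2.72-fold (1.32 to 6.16) and Hoxb2 at 2.08-fold (1.55 to 2.83). Without suffix 4 Hoxb8 had 6 UMIs in Hhip-gated cells and 0 in Pi16-gated cells, which leaves it at least 1.38-fold higher against a floor of 3 UMIs. The median log2 ratio was 0.81 over the members and 0.10 over all genes, and without suffix 4 the count was 2. Between Npnt-gated and Pi16-gated cells, 1 of 11 measured members was past 2-fold higher in the Npnt gate and none lower, against 10.8% and 6.17% of all genes. That member was Hoxa4, 4.48-fold (1.11 to 39.1) higher on 2 UMIs in Pi16-gated cells, and 2.33-fold (0.187 to 122) without suffix 4 on 3 and 1 UMIs. Members had a median log2 ratio of 0.67 and all genes of 0.09, and without suffix 1 the count was 2. Hoxa7, 1.89-fold (1.39 to 2.61), and Hoxa5, 1.59-fold (1.27 to 2.01), were higher in the Npnt gate without passing 2-fold.

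**Figure D4:**
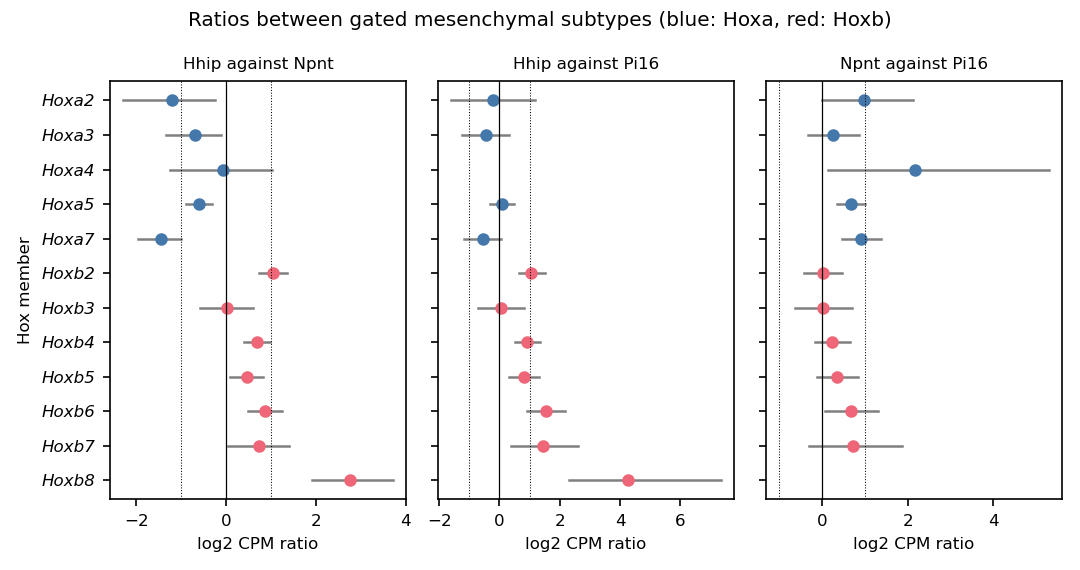
Log2 ratio of the CPM of each measured Hox member between the gated mesenchymal subtypes, with exact 95% intervals; dotted lines mark 2-fold and colours the cluster. Hoxb members lie to the right and most Hoxa members to the left in the Hhip against Npnt panel, with Hoxb8 farthest out.

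Some of these differences were the same within suffixes 1 and 4, which hold most mesenchymal cells, and some were not. Hoxa7 was 2.32-fold (0.957 to 5.71) lower in Hhip-gated than in Npnt-gated cells in suffix 1 and 2.86-fold (1.97 to 4.27) lower in suffix 4. Hoxb2 was 3.25-fold (1.53 to 7.94) and 1.91-fold (1.49 to 2.45) higher, and Hoxb6 1.74-fold (0.899 to 3.64) and 1.66-fold (1.198 to 2.29) higher. These 3 genes kept their direction, although the suffix 1 intervals of Hoxa7 and Hoxb6 include equality. Hoxb8 did not keep its size. In suffix 4 it was at 41.5 (30.1 to 55.9) CPM in Hhip-gated and 4.56 (2.36 to 7.97) CPM in Npnt-gated cells, 9.10-fold (4.71 to 19.0) higher. In suffix 1 it was at 15.8 (5.78 to 34.3) and 15.4 (3.18 to 45.1) CPM, on 6 and 3 UMIs, a ratio of 1.02-fold (0.218 to 6.31). Over all cells outside suffix 4 the log2 ratio of Hoxb8 was 0.83. The lead of Hoxb8 in the Hhip gate therefore rests mainly on suffix 4, and the interval in suffix 1 is wide. Hoxa2 turned around, from 3.06-fold (0.371 to 141) higher in Hhip-gated cells in suffix 1, on 6 and 1 UMIs, to 4.02-fold (1.61 to 12.9) lower in suffix 4.

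**Figure D5:**
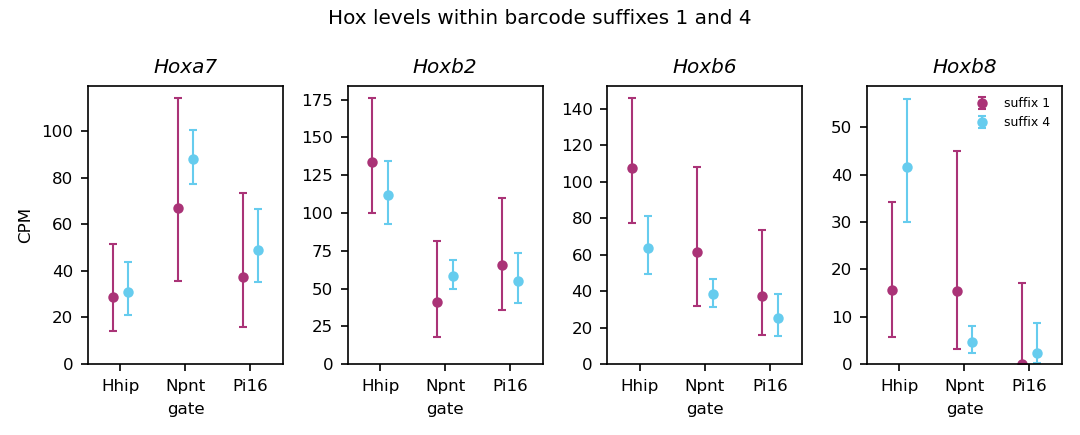
Levels of Hoxa7, Hoxb2, Hoxb6 and Hoxb8 in the 3 gated subtypes, in CPM with exact 95% Poisson intervals, separately for barcode suffixes 1 and 4. Hoxa7 is highest in the Npnt gate and Hoxb2 and Hoxb6 in the Hhip gate in both suffixes, whereas Hoxb8 stands out in the Hhip gate of suffix 4 only.

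Mural cells, the pericytes and vascular smooth muscle around vessels, had a Hox profile led by Hoxb2 and Hoxb5. With 46 cells and 58 Hox UMIs, 5 members were measured against all mesenchymal cells, of which 2 were past 2-fold higher and 1 lower, against 6.58% and 17.0% of all genes. Hoxb5 was 2.77-fold (1.4996 to 4.69) and Hoxb2 2.36-fold (1.31 to 3.93) higher, and Hoxa5 was 2.08-fold (0.888 to 6.42) lower, an interval that includes equality. Without suffix 4, which gave 32 of the 46 cells, no member reached the measured minimum, so none could be counted in either direction. Hoxb5 was then at 170 (46.2 to 434) CPM in mural cells, on 4 UMIs, against 66.7 CPM in mesenchymal cells. Hoxb2 had a log2 ratio of 0.03 and that of Hoxa5 turned to 0.40. Without suffix 1, 1 member was past 2-fold higher. Members had a median log2 ratio of 0.16 and all genes of -0.06. Against Hhip-gated cells alone, an added comparison, Hoxb5 was 2.02-fold (1.07 to 3.55) higher and no other of 5 measured members passed 2-fold, against 7.43% of all genes higher and 14.7% lower. The 6 mural check markers summed to 4387 CPM in mural cells and 225 CPM in Hhip-gated cells. The markers of the Hhip gate summed to 1495 CPM in mural cells against 989 CPM in mesenchymal cells, with Fgf18 at 0, and their part in the mural levels was not tested.

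Mesothelial cells, the outer lining of the lung, had Hoxa5, less RNA of most measured Hoxb members than mesenchymal cells, and Hoxc4 and Hoxc5. Of 10 members measured against mesenchymal cells, none was past 2-fold higher and 6 were lower, against 7.01% and 16.5% of all genes. Their median log2 ratio was -1.05, against -0.07 over all genes. Hoxb5 was lower by 26.4-fold (4.71 to 1044) on its 1 UMI. Without suffix 4 it had none, which leaves it at least 3.33-fold lower against a floor of 3 UMIs. Hoxb6 was lower by 5.02-fold (1.94 to 18.5), and by 4.74-fold (1.28 to 39.7) without suffix 4 on 2 UMIs. Hoxb4 was lower by 3.39-fold (1.88 to 6.82) and, without suffix 4, by 2.16-fold (1.02 to 5.47), since it was at 12.2 (3.33 to 31.3) CPM in mesothelial cells of suffix 4 and 57.6 (21.1 to 125) CPM in those of suffixes 2, 3, 5 and 6. Hoxb7 was lower by 3.71-fold (1.01 to 31.0) on 2 UMIs, both in suffix 4, so that no ratio can be given without it. The remaining pair, Hoxa3 at 2.09-fold (0.997 to 5.24) and Hoxb2 at 2.07-fold (1.26 to 3.65), were just past 2-fold lower, and without suffix 4 Hoxb2 was at 1.77-fold (0.835 to 4.50). Hoxa5 had a ratio of 1.14-fold (0.870 to 1.48). Without suffix 4 its point estimate was on the other side of equality, 0.694-fold (0.326 to 1.31), so both intervals include equality and the direction depends on that suffix.

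Hoxc4 and Hoxc5, adjacent genes of the Hoxc cluster at chr15:102921103-103036852, fell short of the measured minimum in that comparison because so few molecules would be expected in 87 cells. Hoxc4 had 18 UMIs in mesothelial cells, 37.7 (22.4 to 59.6) CPM, against 14 in mesenchymal cells, 1.77 (0.967 to 2.97) CPM, a ratio of 21.3-fold (10.0 to 46.3). Its other levels were 1.01 (0.207 to 2.94) CPM in Npnt-gated cells, 1.80 (0.218 to 6.50) CPM in Pi16-gated cells and 0.192 (0.0395 to 0.560) CPM in leukocytes, with no UMI in Hhip-gated, mural or endothelial cells. Hoxc5, named here after its values were seen, had 9 UMIs in mesothelial cells and 1 in mesenchymal cells. A UMI of Hoxc4 or Hoxc5 was present in 21 of 87 mesothelial cells (24.1%, 15.6% to 34.5%), 13 of 2443 mesenchymal cells (0.532%) and 3 of 4051 leukocytes (0.0741%). Median depths were 5063, 2888 and 3151 UMIs. The mesothelial cells with Hoxc4 or Hoxc5 came from suffixes 1, 2, 4 and 5, with 4, 3, 13 and 1 cells. Suffix 4 gave 14 of the 18 Hoxc4 UMIs, and without it the ratio was 39.7-fold (3.93 to 1954) on 4 and 1 UMIs. Of the 13 mesenchymal cells, 7 had none of Hhip, Npnt and Pi16. Among the 6 such cells with Hoxc4, 2 had a UMI of Wt1, Upk3b or Msln, against 8 of the 433 without it (1.85%). A UMI of the mesothelial check markers, which the gate did not use, was present in 2 of the 6 and in 61 of the 433 cells; the part of mesothelial cells in these counts was not tested. Hoxc5 shares exon bases with Hoxc10 on the same strand, and Hoxc10 had no UMI.

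Endothelial cells had Hoxa5, Hoxb4 and Hoxb5 near the mesenchymal level and little of Hoxb6, Hoxb7 and Hoxb8. Of 12 members measured between mesenchymal and endothelial cells, 6 were past 2-fold higher in mesenchymal cells and none lower, against 18.5% and 15.9% of all genes. The median log2 ratio was 0.86 over the members and -0.14 over all genes. Without suffix 4 the count was 3. The largest were Hoxb6 at 9.54-fold (4.34 to 26.2) and Hoxb7 at 7.05-fold (2.36 to 34.6), with 3 UMIs in endothelial cells, and Hoxb8 was at least 4.35-fold higher against a floor of 3 UMIs. Hoxb2 at 2.78-fold (1.96 to 4.05), Hoxb3 at 2.26-fold (1.36 to 4.02) and Hoxa7 at 2.12-fold (1.53 to 3.02) were also past 2-fold. Within single suffixes this held for Hoxb2, at 3.88-fold (1.47 to 14.5) in suffix 1 and 5.54-fold (1.88 to 27.0) in suffix 4. Hoxb3 was at 1.025-fold (0.359 to 4.02) in suffix 1, on 4 endothelial UMIs, and 3.32-fold (0.904 to 27.6) in suffix 4, on 2. Hoxa7 was at 1.11-fold (0.502 to 2.89) in suffix 1, 1.36-fold (0.772 to 2.66) in suffix 4 and 1.74-fold (1.09 to 2.85) without suffix 4, each under 2-fold. Hoxa5 at 0.930-fold (0.787 to 1.10), Hoxb4 at 1.24-fold (0.984 to 1.57) and Hoxb5 at 0.905-fold (0.714 to 1.16) had ratios whose intervals include equality. Without suffix 4 the ratios were 0.780-fold (0.612 to 0.993) for Hoxa5 and 1.53-fold (1.15 to 2.06) for Hoxb4, whose intervals do not. Hoxb5 and Hoxb6, neighbours in the cluster, were thus both present at like levels in Hhip-gated cells but at 61.0 against 4.41 CPM in endothelial cells.

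All 29 Hoxd UMIs of the endothelial class lay in a small subset. After the values were seen, endothelial cells were split by the lymphatic check markers Prox1, Mmrn1, Ccl21a and Flt4. The 22 cells with 2 or more of them, called lymphatic-like here, came from suffixes 2, 4 and 5 (4, 6 and 12 cells), and the other 566 had these markers at 45.1 CPM in sum against 49860 CPM in the subset. The split itself sets that gap, so it gives no support to the name, which rests on these 4 markers alone. Hoxd9 had 18 UMIs in the subset, 187 (111 to 295) CPM, Hoxd8 had 7, 72.5 (29.2 to 149) CPM, Hoxd4 had 3 and Hoxd10 had 1. Suffix 5 gave 12 of the Hoxd9 UMIs and 4 of the Hoxd8 UMIs. Elsewhere in the gated cells Hoxd4 had 2 UMIs in leukocytes and 1 in an Npnt-gated cell, Hoxd8 had 1 UMI, in a mesothelial cell, and Hoxd9 had 1, in an Npnt-gated cell. None had a UMI in the other endothelial cells, so Hoxd9 was at least 78.6-fold and Hoxd8 at least 30.5-fold higher. These 4 members fall below the 20 UMIs set for full description and are named because of this pattern. A Hoxd UMI was present in 12 of the 22 cells (54.5%, 32.2% to 75.6%), from all 3 suffixes, and in 0 of 566 others, which allows a share of up to 0.650% by the exact interval. In leukocytes the share was 2 of 4051 (0.0494%), at a median depth of 3151 UMIs against 3586.5 in the subset and 1752.5 in the other endothelial cells, which were thus shallower than the subset. The noncoding Hoxd3os1 of the same cluster had 10 UMIs, all in the subset and none in any other gated class. Hoxd8 and Hoxd9 are neighbours in the Hoxd cluster at chr2:74668310-74765142 and share no exon base with another gene of the table, whereas Hoxd4 overlaps both Hoxd3 and Hoxd3os1.

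The rest of the Hox profile of the lymphatic-like cells differed from the other endothelial cells as well. Hoxa7 was at 124 (64.3 to 217) CPM against 21.4 (14.1 to 31.1) CPM, 5.82-fold (2.69 to 11.9) higher, although below the measured minimum. Hoxa5 was at 51.8 (16.8 to 121) CPM against 127 (109 to 149) CPM, 2.46-fold (1.032 to 7.68) lower. Of 3 measured members all 3 were past 2-fold lower, Hoxa5, Hoxb4 and Hoxb5, against 24.0% of all genes lower and 4.44% higher, but the intervals of Hoxb4 and Hoxb5 include equality. Cluster D held 51.8% (38.0 to 65.3) of Hox UMIs in the subset.

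Leukocytes had little Hox RNA, and more than any other member it was Hoxb4. All 13 members measured were past 2-fold higher in mesenchymal cells and none was lower, against 28.0% and 19.9% of all genes. The median log2 ratio was 6.63 over the members and 0.19 over all genes. Without suffix 4, 7 members reached the measured minimum and passed 2-fold, and all 13 kept a log2 ratio above 0, 2 of them as lower bounds. With all suffixes pooled, Hoxb2 was 217-fold (92.6 to 672), Hoxb5 173-fold (73.6 to 535), and Hoxa5 98.7-fold (62.1 to 167) higher in mesenchymal cells. Hoxa4 was at least 36.3-fold higher. Point estimates within suffixes 1 and 4 were smaller, at 17.7-fold (7.35 to 55.7) and 53.3-fold (25.7 to 133) for Hoxa5. Those of Hoxb2 were 89.4-fold (15.7 to 3564) and 105-fold (28.9 to 871). Hoxb5 was at least 23.3-fold higher in suffix 1, against a floor of 3 UMIs, and 41.7-fold (16.1 to 154) in suffix 4. Without suffix 4 the ratio of Hoxb2 was 345-fold (115 to 1695), on 3 UMIs in leukocytes, and that of Hoxb5 832-fold (146 to 33209), on 1. The smallest pooled ratio was that of Hoxb4, 9.71-fold (8.003 to 11.9). In suffix 4 Hoxb4 was at 16.5-fold (9.74 to 30.4), above Hoxa2 at 13.2-fold (4.35 to 65.2). Hoxb4 gave 126 of the 231 Hox UMIs of leukocytes. With all suffixes pooled, mesenchymal cells had 618 UMIs of Hoxb4 to 898 of Hoxa5, and leukocytes 126 to 18. In suffix 1 the counts were 130 to 105 and 7 to 5, so the contrast was not seen there. In suffix 4 they were 468 to 755 and 14 to 7. The contrast was largest in suffixes 2, 3, 5 and 6 together, at 20 to 38 and 105 to 6.

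Within leukocytes Hoxb4 was at 8.74 (5.41 to 13.4) CPM in B cells (gated on Cd79a and Cd79b), 8.60 (5.71 to 12.4) CPM in T cells (Cd3d, Cd3e and Cd3g) and 11.9 (9.30 to 15.1) CPM in leukocytes outside the 3 subset gates. In alveolar macrophages (Mrc1 and Marco) it was at 1.69 (0.681 to 3.49) CPM. With all suffixes pooled, the macrophage interval lay below the others. Macrophages were nevertheless the deepest leukocytes, at a median of 5217 UMIs, against 2136 in B cells and 3127 in T cells. Suffix 4 held 364 of the 757 macrophages, against 20 of 931 B cells, 39 of 879 T cells and 150 of 1484 other leukocytes. Over all leukocytes Hoxb4 was at 4.41 CPM in suffix 4, 7.09 CPM in suffix 1 and 9.13 CPM in suffixes 2, 3, 5 and 6. Whether macrophages were lower within a suffix was not tested. For Hoxa7 the pooled intervals overlapped. It was at 1.67 (0.454 to 4.26) CPM in B cells and 1.84 (0.676 to 4.01) CPM in T cells. Leukocytes outside the 3 subset gates had 2.56 (1.43 to 4.22) CPM and macrophages 1.45 (0.533 to 3.16) CPM. Hoxa9, a gene of blood progenitors singled out after its values were seen, had 8 UMIs in leukocytes and none in any mesenchymal, mural, mesothelial or endothelial cell. Of these 8, 7 were in leukocytes outside the subset gates and 1 in a B cell.

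At full depth a Hox UMI was seen in most mesenchymal, mural and mesothelial cells, in fewer endothelial cells, and rarely in leukocytes and epithelial cells. At least 1 was present in 75.6% of Hhip-gated, 76.5% of Npnt-gated, 70.8% of Pi16-gated, 65.2% of mural, 77.01% of mesothelial and 46.4% of endothelial cells. The share was 5.16% of leukocytes, 4.23% of alveolar macrophages and 4.60% of epithelial cells, at median depths of 3151, 5217 and 5403 UMIs. These are given for comparison, and how much of them is background was not tested. Hoxb4 alone was seen in 2.91% (2.42 to 3.48) of leukocytes and 0.925% (0.373 to 1.90) of alveolar macrophages. Median depths ran from 1768.5 UMIs in mural to 5063 in mesothelial cells. With each cell thinned to 1000 UMIs the shares became 46.9%, 42.0%, 34.5%, 40.5%, 21.8% and 28.9% in the same order of stromal classes, and 1.28% in leukocytes. Mesothelial cells had the highest point estimate of these 6 classes at full depth and the lowest at equal depth. At equal depth the mesothelial interval, 13.7% to 32.0%, overlapped those of endothelial, Pi16-gated and mural cells. It lay below those of Hhip-gated and Npnt-gated cells. Shallower cells were left out of the thinned shares: 17, 3, 12, 4, 0 and 65 of the stromal classes and 60 of the leukocytes.

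More than 1 Hox gene was often caught in the same cell. UMIs of 2 or more members were present in 237 of 554 Hhip-gated cells (42.8%), 412 of 912 Npnt-gated (45.2%), 119 of 308 Pi16-gated (38.6%) and 105 of 588 endothelial cells (17.9%). In leukocytes it was 8 of 4051 (0.197%). Members of both cluster A and cluster B were seen together in 22.9% of Hhip-gated, 32.0% of Npnt-gated and 25.0% of Pi16-gated cells. These shares were not thinned to equal depth.

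TALE cofactors, the DNA-binding partners of Hox proteins, were present in all stromal classes. All 9 genes of the list were measured between mesenchymal cells and leukocytes, and 5 were past 2-fold higher in mesenchymal cells and none lower, against 28.0% of all measured genes higher and 19.9% lower. The median log2 ratio was 1.07 over the list and 0.19 over all genes. Meis2 was 144-fold (72.5 to 335) higher, Pknox2 76.0-fold (32.0 to 237) and Meis1 29.6-fold (22.6 to 39.4). Meis2 was at 235 (193 to 282) CPM in mesothelial and 221 (196 to 247) CPM in endothelial cells, against 73.4 (67.6 to 79.7) CPM in mesenchymal cells. Meis1 was at 155 (135 to 178) CPM in endothelial cells but had no UMI in the lymphatic-like subset, where up to 38.2 CPM remained possible.

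Noncoding transcripts of the clusters were also higher in mesenchymal cells than in leukocytes where measured. Of 9 listed genes present in the table, 4 were measured between mesenchymal cells and leukocytes, and all 4 were past 2-fold higher in mesenchymal cells, against 28.0% of all measured genes. Their median log2 ratio was 4.97, against 0.19 over all genes. These 4 were Hoxb5os at 218-fold (38.3 to 8677) on 1 UMI in leukocytes, Hoxb3os at 86.7-fold (36.6 to 269.7), Hotairm1 at 11.3-fold (8.99 to 14.3) and Hoxaas3 at 6.598-fold (4.00 to 11.3). Hotairm1, a noncoding transcript of the Hoxa cluster, was at 164 (91.6 to 270.0) CPM in mural, 134 (103 to 171) CPM in mesothelial, 86.0 (71.2 to 103) CPM in endothelial, 83.5 (73.5 to 94.5) CPM in Npnt-gated and 37.7 (28.3 to 49.2) CPM in Hhip-gated cells. Hoxb3os was at 207 (125 to 324) CPM in mural cells, on 19 UMIs, and 27.7 (24.1 to 31.6) CPM in mesenchymal cells.

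Genes that flank the clusters or act on them lay nearer to the median of all genes, 0.19 in log2 ratio, than the members did. Of 9 flanking genes measured between mesenchymal cells and leukocytes, 2 were past 2-fold higher in mesenchymal cells, Cbx5 at 6.41-fold (5.63 to 7.32) and Lnp at 4.23-fold (3.66 to 4.88), and 1 lower, Skap1, an adaptor protein of T cells, at 86.1-fold (39.4 to 235). These are 2 and 1 of 9, where 28.0% of all measured genes were higher and 19.9% lower, and flanking genes had a median log2 ratio of 0.33. Of 16 Polycomb and Trithorax genes, whose products keep Hox genes off or on, 2 were higher (Cbx2 and Ring1) and 2 lower (Ezh2 and Suz12), against the same 28.0% and 19.9% of all genes, with a median log2 ratio of 0.06. Of the retinoid and Cdx list, 4 of 8 genes were measured: Cyp26b1, which degrades retinoic acid, was 33.6-fold (13.9 to 106) higher in mesenchymal cells, Rarg 2.93-fold (2.51 to 3.43) and Rarb 2.57-fold (1.38 to 4.86) higher, and Rara 2.37-fold (2.09 to 2.69) lower. So 3 were higher and 1 lower, against 28.0% and 19.9% of all genes, and their median log2 ratio was 1.46.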

How the data were processed

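The deposited table holds counts, whole UMIs per gene and barcode; per the submitters' processing notes STAR 2.5.1, Cell Ranger 1.3.0 and the mm10 genome were used, and the labels' protocols give the 10x Single Cell 3′ v2 kit. A second, normalized table was not used here. The Hox members, gates and gene lists were chosen with earlier results of these data known. Cells with at least 500 genes and at most 10% mitochondrial UMIs were kept (9994 of 10410 barcodes), and 75 doublets (0.750%) were removed with Scrublet in scanpy 1.11.5, run per suffix. Barcodes that passed more than 1 lineage gate (517) or none (2100) were left out. Counts were summed per class over all suffixes, with python 3.11.15, numpy 2.4.6, pandas 2.3.3 and scipy 1.17.1. The 7 planned comparisons used exact intervals and no p-values, since no class has samples to test over; 3 more (the lymphatic-like subset, endothelial against leukocyte and mural against Hhip-gated cells) were added after the values were seen. Interval code was checked on simulated counts. Members with 20 or more gated UMIs are given in full, others by counts; list genes are named where past 2-fold between mesenchymal cells and leukocytes or between subtypes, at most 4 per list. Gene positions and exon overlaps are from GENCODE on GRCm38 and promoters from RefSeq. Values of 1 member and 1 list gene are not reported here.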

Additional observations from a re-analysis of the deposited data

How the results depend on the processing

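Counts of members past 2-fold stayed within 1.5 times in 107 of 124 values under the alternatives. The others were as follows. Without suffix 4, which removes 1768 of the 2443 mesenchymal cells, 7 members were higher in mesenchymal cells than in leukocytes and 3 higher than in endothelial cells, 0 were higher and 0 lower in mural cells, 1 was higher and 0 lower in the Hhip than in the Npnt gate, and 2 were higher in the Hhip than in the Pi16 gate. For mural cells no member then reached the measured minimum, which fixed both counts. Without suffix 1, 1 was higher in mural cells, 1 in the Hhip than in the Npnt gate and 2 in the Npnt than in the Pi16 gate. With a minimum of 3 UMIs, 3 were lower in mesenchymal than in endothelial cells, 2 were higher in mesothelial than in mesenchymal cells and 3 in the Npnt than in the Pi16 gate. The stricter cell filter left 0 higher in mural cells and 1 in the Hhip than in the Npnt gate, keeping mixed barcodes left 0 higher in mural cells, and gate genes at 2 UMIs left 0 lower there. Of 572 values of the ratios of measured members, 543 stayed within their interval and 27 moved, and 2 ratios past 2-fold turned, both without suffix 4: the log2 ratio of Hoxa5 between mural and mesenchymal cells became 0.40 and that of Hoxa2 between the Hhip and Npnt gates 1.42. Ratios under 2-fold are not counted as turned, although that of Hoxa5 between mesothelial and mesenchymal cells crossed equality without suffix 4. For 8 further values a class had 0 UMIs under the alternative, which gives no ratio, Hoxb7 in mesothelial cells without suffix 4 among them. Of 50 summed Hox levels, 45 stayed within their interval. Without suffix 4 the Hhip gate was at 695 CPM and mesothelial cells at 301 CPM, endothelial cells were at 267 CPM with mixed barcodes kept and 347 CPM with gate genes at 2 UMIs, and leukocytes were at 20.8 CPM with mixed barcodes kept. Thinning to 1000 UMIs lowered all 11 shares of cells with a Hox UMI: to 46.9% for the Hhip gate, 42.0% Npnt, 34.5% Pi16, 39.2% none of these, 40.5% mural, 21.8% mesothelial, 28.9% endothelial, 22.7% lymphatic-like, 1.28% leukocytes, 0.926% alveolar macrophages and 1.16% epithelial cells. Leaving out mesenchymal cells with no or several subtype genes, and the lymphatic-like cells, were alternatives chosen after seeing the data, and neither moved a count by over 1.5 times. The cause of these shifts was not tested. No paired analysis was possible because the barcodes are not tied to samples. Classes of 22 to 87 cells detect a member only above 5.74 to 32.7 CPM at 3 UMIs, so absence there is not shown.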
